A study of Mus musculus with 33 samples.

Results

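Trib3, Sesn2, Ddit4 and Eif4ebp1 are 4 mouse genes whose proteins restrain growth signalling and whose transcription is known to be raised during cell stress through the transcription factor Atf4. They were taken by gene symbol, with earlier results of these data known, and make up 4 of the 32245 genes in each expression table. All 4 were found in all 3 tables and all 4 passed the filter on low values in each. The shared name of stress-induced brakes fitted the measurements unevenly: Trib3 rose wherever Ptpmt1 was knocked out without an Eif2a mutation or a second knockout labelled Hri, Sesn2 was called higher than control in 1 table, and Ddit4 and Eif4ebp1 were not called by limma in any of 13 comparisons.

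Growth factors act through the kinase Akt on mTORC1, the kinase complex that promotes protein synthesis and cell growth. When eIF2 is phosphorylated, by Gcn2 during amino acid shortage or by Hri during haem shortage and mitochondrial stress, general translation falls while translation of Atf4 goes up, and this is called the integrated stress response. Trib3 is a pseudokinase that binds and inhibits Akt. Sesn2 (sestrin 2) is a leucine sensor that holds mTORC1 off through the GATOR complexes. Ddit4 (REDD1) inhibits mTORC1 through the TSC complex, and is also known as a target of hypoxia and glucocorticoids. Eif4ebp1 (4E-BP1) binds the cap-binding factor eIF4E and blocks cap-dependent translation until mTORC1 phosphorylates it. In heart muscle, mTORC1 activity is known to be needed for growth and to be lowered during energy and nutrient stress.

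The samples are cardiomyocytes (heart muscle cells) of mice, the labels call their RNA nuclear, and it was sequenced after removal of ribosomal RNA. Ptpmt1, the mitochondrial phosphatase of the cardiolipin pathway, was knocked out in cardiomyocytes, alone or with a second mutation. The FST table held 3 double mutants with the Ptpmt1 knockout and a mutation of Eif2a (the alpha subunit of eIF2, in the labels' usage), 3 Ptpmt1 knockouts, 3 Eif2a mutants and 3 controls. The PHT table held 2 doubles labelled Ptpmt1 and Hri knockout, 3 Ptpmt1 knockouts, 2 libraries labelled Hri knockout (restricted to cardiomyocytes in the label of these, not in that of the doubles) and 2 controls. The PTGC table held 3 doubles labelled Ptpmt1 and Gcn2 knockout and 3 controls, with neither single mutant. The sources used here do not name the Cre driver, the kind of Eif2a mutation, the mice's age or the alleles that controls may carry. The labels do not say that the libraries of a group came from separate animals, so p-values measure the spread between these libraries. In total 27 of 33 samples were analysed, and 6 of a line with the Ptpmt1 knockout alone are not analysed here.

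Depth ranged over 1887978 to 19405261 reads in genes. FST double replicate 2 (1887978 reads, 15336 genes with reads) and FST Eif2a mutant replicate 1 (15157 genes) stood apart from the other FST libraries. Ptpmt1 stood at 27.7% and 21.8% of the control mean in the FST doubles and knockouts, at 29.2% and 18.4% in those of PHT, and at 21.7% in the PTGC doubles. The targeted kinase transcripts did not check their labels: Eif2ak1 (Hri) averaged 510.1 ± 48.9 normalized counts in PHT doubles and 403 ± 18.8 in the libraries labelled Hri knockout, against 569 ± 29.8 in controls (SD, n = 2 each). Eif2ak4 (Gcn2) averaged 350.3 ± 36.8 in PTGC doubles against 392 ± 125 in controls (SD, n = 3 each), and neither kinase gene passed the test in any comparison. By Xist and Y-linked genes, 2 of 3 FST doubles, 3 of 3 knockouts, 3 of 3 Eif2a mutants and 1 of 3 controls had a male pattern. So did 2 of 2 PHT doubles, 1 of 3 knockouts, 2 of 2 libraries labelled Hri knockout and 0 of 2 controls, and 2 of 3 doubles and 2 of 3 controls in PTGC. Since the PHT libraries labelled Hri knockout and the doubles were all male in pattern and the controls were not, a fit with sex as a term there rests on the 1 male-pattern knockout. All 12 cardiomyocyte markers were detected in each group and made up 4.87% to 7.81% of the signal per library, against 0.00344% to 0.291% for any of the 6 lists of fibroblast, endothelial, mural, macrophage, erythroid and epicardial markers. In bulk samples such as these, fewer cells of a type and less RNA per cell cannot be told apart.

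The stretches of 150 bases that lie directly before the annotated starts of Trib3, Sesn2 and Ddit4 are shown because they hold, or lack, the letters of the composite element through which Atf4 is known to act. All 3 genes lie on the minus strand, sequences are written 5′ to 3′ on the gene's strand from RefSeq's GRCm38.p6 windows, and capitals mark motif matches.
Trib3, chr2:152344033-152344182: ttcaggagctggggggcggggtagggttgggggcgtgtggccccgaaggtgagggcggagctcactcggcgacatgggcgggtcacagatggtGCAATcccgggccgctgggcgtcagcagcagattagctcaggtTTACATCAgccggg
Sesn2, chr4:132510502-132510651: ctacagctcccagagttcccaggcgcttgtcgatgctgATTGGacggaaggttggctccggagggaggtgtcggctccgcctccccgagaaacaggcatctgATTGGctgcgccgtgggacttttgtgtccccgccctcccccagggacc
Ddit4, chr10:59951835-59951984: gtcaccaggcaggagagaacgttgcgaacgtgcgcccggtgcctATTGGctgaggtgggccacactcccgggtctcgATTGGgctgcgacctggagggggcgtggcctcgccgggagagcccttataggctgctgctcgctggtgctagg
The core of the C/EBP-ATF response element (CARE, searched as TGATGNAA on both strands) matched once for Trib3, on the opposite strand, so that it reads TTACATCA above, 14 bases before the GENCODE start and 15 bases after the RefSeq start. Trib3 also held 1 match to the C/EBP core GCAAT, 57 bases before the GENCODE start. Sesn2 and Ddit4 each held 2 CCAAT boxes on the opposite strand (ATTGG above) and no CARE core in their 300-base windows, which run from 250 bases before to 50 bases after the RefSeq start. The CARE core was present in 3.97% of 32851 such promoter windows, GCAAT in 26.4% and CCAAT in 37.4%, and in the windows of 4 of 10 genes of the Atf4 axis described below the CARE core was found. The search allowed any overlap between motifs, and a match describes letters only.

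Members were tested with limma on log2(normalized count + 1), with all groups of a table in 1 fit and Benjamini-Hochberg adjustment over all genes tested. A call means an adjusted p under 0.05. Fold changes are on the log2(value + 1) scale and are given ± SE, group means ± SD.

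Trib3 (ENSMUSG00000032715.9, GRCm38 chr2:152337422-152344032, minus strand) changed most of the 4. In FST its normalized counts were 33.5, 26.5 and 32.8 in doubles, 181, 160.1 and 457 in Ptpmt1 knockouts, 69.8, 39.1 and 45.1 in Eif2a mutants, and 14.8, 14.96 and 13.2 in controls. All 3 knockouts lay above every other library, and no pair of groups overlapped. Knockouts averaged 266 ± 166 against 14.3 ± 0.957 in controls (SD, n = 3 each), a log2 fold change of 3.96 ± 0.34 (adjusted p = 2.51e-05), or 15.5-fold with a 95% interval of 9.40 to 25.7. No marker list separated these groups by its share of the signal. Of the 12 cardiomyocyte markers limma called 0 here, with 6 at an unadjusted p under 0.05 (1860 of 13896 over all genes), 1 called by edgeR and 4 by DESeq2 (list median -0.27), and the mural gene Cspg4 was lower (-0.53, adjusted p = 0.0153). Their part in the result was not tested. Doubles averaged 30.9 ± 3.83, which is 11.6% of the knockout level, or 18.1% without Ptpmt1 knockout replicate 3, and fell below the knockouts by a log2 fold change of -2.91 ± 0.34 (adjusted p = 0.000775). Within the male-pattern libraries alone the same differences were 3.91 for 3 knockouts against 1 control and -2.96 for 2 doubles against 3 knockouts.

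The Eif2a mutants, which still have Ptpmt1, had more Trib3 than controls in each library, at 51.3 ± 16.3 on average, but the difference of 1.73 ± 0.34 did not pass limma's test (adjusted p = 0.155), while DESeq2 called it (adjusted p = 0.00468). Doubles differed from controls by 1.05 ± 0.34 (adjusted p = 0.308) and from Eif2a mutants by -0.68 ± 0.34 (adjusted p = 0.623), neither of which was called. The interaction asks whether knocking out Ptpmt1 did the same with and without the Eif2a mutation. For Trib3 it was -4.63 ± 0.48 (adjusted p = 0.000525): the knockout raised Trib3 on a normal background, and on the Eif2a mutant background the estimate was negative. The reads behind these values were few in the shallow library, with 6 Trib3 reads in FST double replicate 2, and 18 reads in each control.

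In PHT the Trib3 values were 18.4 and 51.4 in doubles, 253, 332 and 437 in Ptpmt1 knockouts, 26.5 and 14.0 in libraries labelled Hri knockout, and 40.5 and 17.9 in controls. Knockouts again lay above every other library, while the other groups overlapped each other. Knockouts averaged 341 ± 92.4 (n = 3) against 29.2 ± 16.0 in controls (n = 2), a log2 fold change of 3.57 ± 0.43 (adjusted p = 0.000669). Marker shares separated knockouts from controls for 3 lists. These were erythroid (0.0132% to 0.0598% against 0.0690% to 0.0876% in controls), endothelial (0.1156% to 0.1165% against 0.107% to 0.112%) and epicardial markers (0.0266% to 0.0289% against 0.0227% to 0.0242%). Of 9 erythroid genes tested 8 had an unadjusted p under 0.05 (717 of 14965 over all genes), and limma, edgeR and DESeq2 called 0. Their part in the rise was not tested.

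PHT doubles averaged 34.9 ± 23.4 Trib3 counts (n = 2), 10.2% of the knockout level, at -3.39 ± 0.43 against knockouts (adjusted p = 0.00113). That last call was lost with sex pattern as a term (-2.99, adjusted p = 0.0743), and equalled the difference within the male-pattern libraries, of which 2 were doubles and 1 a knockout. The size of the fall also turned on the doubles, at -2.67 (15.1% of the knockout level) without double replicate 1 and -4.11 (5.39%) without double replicate 2, and the call held in both (adjusted p = 0.0188 and 0.000542). Erythroid markers separated doubles from knockouts, at 0.0898% to 0.154% of the signal in doubles and 0.0132% to 0.0598% in knockouts, as did endothelial markers, at 0.113% to 0.115% in doubles and 0.1156% to 0.1165% in knockouts. Of 9 erythroid genes tested 9 had an unadjusted p under 0.05 (1241 of 14965 over all genes). Limma, edgeR and DESeq2 each called 1, which by limma was Hbb-bs (2.28 ± 0.39, adjusted p = 0.0158). The part of these marker lists in the fall was not tested. The call against control held without each library in turn, most narrowly without control replicate 2 (3.01, adjusted p = 0.04995).

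Doubles and controls did not differ in Trib3 by limma's test in PHT (0.19 ± 0.47, adjusted p = 0.956; 95% interval -0.82 to 1.19). The libraries labelled Hri knockout were at -0.46 ± 0.47 against controls (adjusted p = 0.9998), and doubles at 0.65 ± 0.47 against them (adjusted p = 0.870). The PHT interaction of -2.92 ± 0.64 was not called (adjusted p = 0.169), and was called without double replicate 2 (-3.64, adjusted p = 0.0317).

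In PTGC, Trib3 was at 721, 544 and 695 in the doubles lacking Ptpmt1 and labelled Gcn2 knockout, against 28.001, 31.4 and 16.02 in controls. Each double lay far above the highest control. Doubles averaged 654 ± 95.6 and controls 25.1 ± 8.07 (SD, n = 3 each), a log2 fold change of 4.69 ± 0.23 (adjusted p = 8.24e-07), or 25.8-fold with a 95% interval of 18.3 to 36.4. The difference was 4.74 within male-pattern libraries (2 against 2) and 4.58 within female-pattern ones (1 against 1). The table has no Ptpmt1 knockout with Gcn2 intact, so the effect of Gcn2 on this rise could not be tested. Fibroblast markers were higher (0.165% to 0.189% against 0.138% to 0.164% in controls) and mural markers lower (0.133% to 0.157% against 0.168% to 0.180%) in these doubles, and epicardial markers were at 0.0270% to 0.0287% against 0.0248% to 0.0259%. The part of these lists in the PTGC results was not tested.

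**Figure D1:**
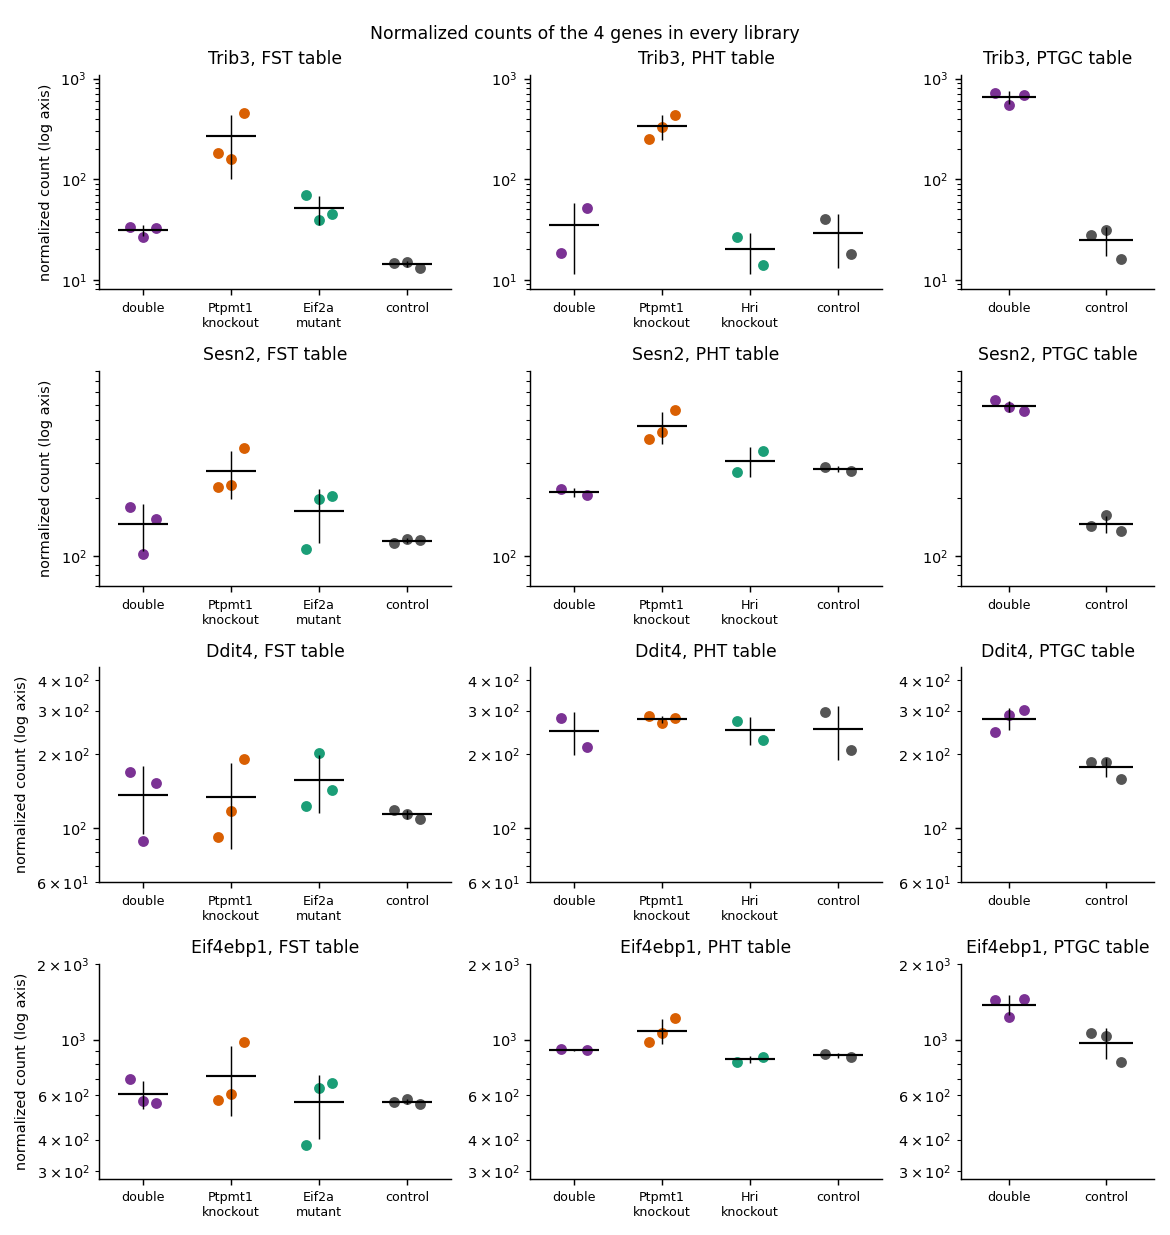
Normalized counts of the 4 genes in every library (points; log axis) with group means and SD, by genotype within each table. Trib3 stands apart in the Ptpmt1 knockouts of FST and PHT and in the PTGC doubles, where the lowest library has 160.1 normalized counts and no control exceeds 40.5; Ddit4 and Eif4ebp1 lie close together across FST and PHT groups.

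Sesn2 (ENSMUSG00000028893.8, chr4:132492032-132510501, minus strand) was highest in Ptpmt1 knockouts, as Trib3 was, with smaller differences, and the other PHT groups were ordered differently for the 2 genes. In FST it was at 178, 102 and 156 in doubles, 226, 232 and 359.6 in Ptpmt1 knockouts, 109, 197 and 202 in Eif2a mutants, and 116, 122 and 121 in controls. Knockouts lay above all other libraries, and doubles, Eif2a mutants and controls overlapped. Knockouts averaged 273 ± 75.5 against 119.8 ± 3.34 in controls (SD, n = 3 each), a log2 fold change of 1.15 ± 0.25 that missed the threshold by limma (adjusted p = 0.0567). It passed with edgeR (1.19, adjusted p = 0.0199), and without Ptpmt1 knockout replicate 3, the highest library (0.93, adjusted p = 0.0440). Doubles, at 145 ± 39.4, stood at 53.3% of the knockout level (-0.91 ± 0.25, adjusted p = 0.102), and the interaction of -1.35 ± 0.35 was not called (adjusted p = 0.417). DESeq2 called both, with adjusted p of 0.0295 and 0.0347.

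In PHT Sesn2 was at 222 and 206 in doubles, 401, 435 and 567 in Ptpmt1 knockouts, 271 and 348 in libraries labelled Hri knockout, and 287 and 274 in controls. Knockouts were above all other libraries and doubles below all others. Doubles averaged 214 ± 11.2 (n = 2) against 468 ± 87.8 in knockouts (n = 3), a fall of -1.11 ± 0.15 (adjusted p = 0.00257) to 45.7% of the knockout level. With sex pattern as a term this was -0.91 and not called (adjusted p = 0.207). Against controls (281 ± 9.17, n = 2) the knockouts were at 0.72 ± 0.15, short of the threshold (adjusted p = 0.0867), where DESeq2 called the gene (adjusted p = 0.00678). Doubles were at -0.39 ± 0.17 against controls (adjusted p = 0.743) and -0.52 ± 0.17 against the libraries labelled Hri knockout (adjusted p = 0.754). The interaction was -1.24 ± 0.23 with an adjusted p of 0.0507, on the edge of the threshold, and passed without Ptpmt1 knockout replicate 1 (-1.34, adjusted p = 0.0436).

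In PTGC Sesn2 was at 635, 585 and 556 in doubles, against 142, 163 and 135 in controls, with a wide gap between the groups. Doubles averaged 592 ± 39.6 and controls 146.7 ± 14.7 (SD, n = 3 each), a log2 fold change of 2.01 ± 0.12 (adjusted p = 2.44e-06), or 4.02-fold with a 95% interval of 3.34 to 4.84. This was the one comparison with control in which Sesn2 passed limma's test, and it passed under each alternative run.

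Ddit4 (ENSMUSG00000020108.4, chr10:59949669-59951834, minus strand) showed no called change. In FST it was at 168, 88.4 and 152 in doubles, 91.5, 117 and 189.9 in Ptpmt1 knockouts, 123, 202 and 143 in Eif2a mutants, and 118, 114 and 109 in controls. Knockouts fell on both sides of the controls, and only the Eif2a mutants were wholly above them. The knockout estimate of 0.16 ± 0.27 (adjusted p = 0.872) became -0.13 without knockout replicate 3. In PHT the values were 281 and 212 in doubles, 284, 267 and 279 in knockouts, 272 and 227 in libraries labelled Hri knockout, and 296 and 208 in controls. Every other PHT library lay inside the range of the 2 controls, and the knockout estimate was 0.16 ± 0.17 (adjusted p = 0.999; 95% interval -0.20 to 0.51).

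In PTGC Ddit4 was higher in each double, at 246, 287 and 302 against 185, 186 and 158 in controls. The groups did not overlap. Doubles averaged 278 ± 28.6 and controls 176 ± 15.9 (SD, n = 3 each), and the log2 fold change of 0.65 ± 0.13 was just short of the threshold (adjusted p = 0.0543). It passed by DESeq2 (adjusted p = 0.00938), and by limma without control replicate 2 (0.69, adjusted p = 0.0258) or control replicate 3 (0.58, adjusted p = 0.0477).

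Eif4ebp1 (ENSMUSG00000031490.6, chr8:27260329-27276674, plus strand) had the highest level of the 4 per kilobase and small differences between groups. In FST it was at 696, 570.1 and 559 in doubles, 574, 609 and 974.8 in Ptpmt1 knockouts, 381, 639.6 and 671 in Eif2a mutants, and 564, 582 and 556 in controls. All FST groups overlapped, and the knockout estimate of 0.30 ± 0.20 (adjusted p = 0.569) was 0.06 without knockout replicate 3. In PHT it was at 913 and 906 in doubles, 974, 1057 and 1214 in knockouts, 814 and 853 in libraries labelled Hri knockout, and 878 and 852 in controls. The 3 knockouts were the 3 highest PHT libraries, yet the estimate of 0.32 ± 0.10 did not pass (adjusted p = 0.537), nor did that of doubles against knockouts (-0.24 ± 0.10, adjusted p = 0.482).

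In PTGC Eif4ebp1 was at 1436, 1233 and 1452 in doubles, against 1064, 1037 and 813 in controls, with no overlap. The log2 fold change was 0.51 ± 0.12 (adjusted p = 0.137), and DESeq2 called it (adjusted p = 0.0228), as did limma without control replicate 2 (0.56, adjusted p = 0.0347).

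**Figure D2:**
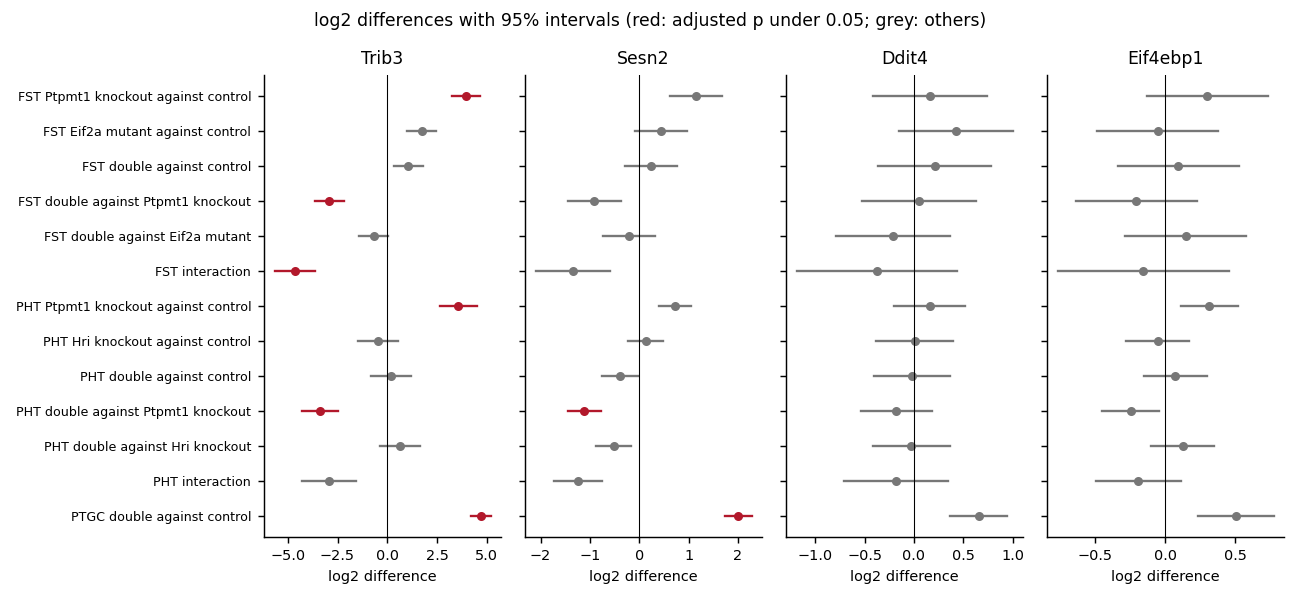
Log2 fold change of the 4 genes in each comparison with 95% intervals from limma; red points passed an adjusted p of 0.05, and each gene has its own horizontal scale. The called points are those of Trib3 (3.96, 3.57 and 4.69 against control) and Sesn2 (2.01 in PTGC and -1.11 in the PHT doubles against knockouts), with the Trib3 falls in the doubles (-2.91 and -3.39) and its FST interaction (-4.63).

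By comparison, 1 of the 4 members was called in FST knockouts against controls, where 0.504% of all genes tested were, and 1 of 4 in PHT knockouts against controls (0.301% of all genes). Doubles against knockouts gave 1 of 4 in FST (0.878% of all genes) and 2 of 4 in PHT (0.327%). The FST interaction gave 1 of 4 (0.0216% of all genes), and the PTGC doubles against controls 2 of 4 (0.743%). Groups did not overlap for 2 members in FST knockouts against controls (19.1% of all genes), 3 in PHT knockouts against controls (23.6%) and 4 in PTGC (18.0%). The same held for 2 members in FST doubles against knockouts (17.8% of all genes) and 3 in PHT doubles against knockouts (24.0%).

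In the other comparisons limma called 0 of 4 members. These were FST Eif2a mutants against controls (0.0360% of all genes called by limma; 1 member at an unadjusted p under 0.05, 0 by edgeR, 1 by DESeq2), FST doubles against controls (0.144%; 1, 0 and 0) and FST doubles against Eif2a mutants (0.00720%; 0, 0 and, for DESeq2 without its filter, 0). Of all 13896 genes tested, 1108, 1404 and 1131 had an unadjusted p under 0.05 in these. Over the same genes edgeR called 6, 21 and 1, and DESeq2 42, 93 and, without its filter, 11. In PHT they were libraries labelled Hri knockout against controls (0.0200%; 0, 0 and 0), doubles against controls (0.0267%; 1, 0 and 0), doubles against the libraries labelled Hri knockout (0.0200%; 1, 0 and 0) and the interaction (0.120%; 2, 0 and 1), in the same order of counts. Of all 14965 genes tested, 485, 984, 873 and 694 had an unadjusted p under 0.05 in these. Over the same genes edgeR called 3, 4, 2 and 15, and DESeq2 4, 12, 10 and 38.

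Set against the mean of the knockouts, the doubles had 11.6% and 10.2% of Trib3 in FST and PHT (9.68% to 18.1% and 5.39% to 15.1% when single libraries were left out), 53.3% and 45.7% of Sesn2, 102% and 89.2% of Ddit4, and 84.6% and 84.1% of Eif4ebp1. The median log2 fold change of the 4 was 0.72 in FST knockouts, 0.52 in PHT knockouts and 1.33 in PTGC doubles, each against control, beside -0.01, 0.00 and 0.00 over all genes tested. Per kilobase of exon in GENCODE M21 the order of levels also changed between groups. The sources name no annotation, so the lengths over which reads were counted may differ from these. In plain normalized counts Sesn2 (273) lay slightly above Trib3 (266) in FST knockouts. In FST knockouts Trib3 reached 125 ± 78.1 normalized counts per kb, Sesn2 78.4 ± 21.7, Ddit4 75.8 ± 29.1 and Eif4ebp1 328 ± 101, whereas in FST controls Trib3 was the lowest at 6.75 ± 0.45, below Sesn2 (34.5 ± 0.96), Ddit4 (64.6 ± 2.53) and Eif4ebp1 (258 ± 6.08). In PTGC doubles Trib3 stood at 308 ± 45.0 per kb, above Sesn2 (170.4 ± 11.4) and Ddit4 (159 ± 16.3) and below Eif4ebp1 (626 ± 55.6), all with n = 3 (SD).

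Within a group the knockout libraries differed from each other in a shared way. In FST, knockout replicate 3 had the highest value of all 4 members, 2.68 times the mean of the other knockouts for Trib3, 1.57 for Sesn2, 1.82 for Ddit4 and 1.65 for Eif4ebp1. The same library was highest for Atf4 (1.45 times), Atf5 (2.93), Ddit3 (1.54), Asns (1.34) and Chac1 (2.19). It also had the deepest FST library, with 12583868 reads, and the part of depth in these ratios was not tested. In PHT, knockout replicate 3 was highest for Trib3 (1.49 times), Sesn2 (1.36) and Eif4ebp1 (1.196), but not for Ddit4 (1.01).

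**Figure D3:**
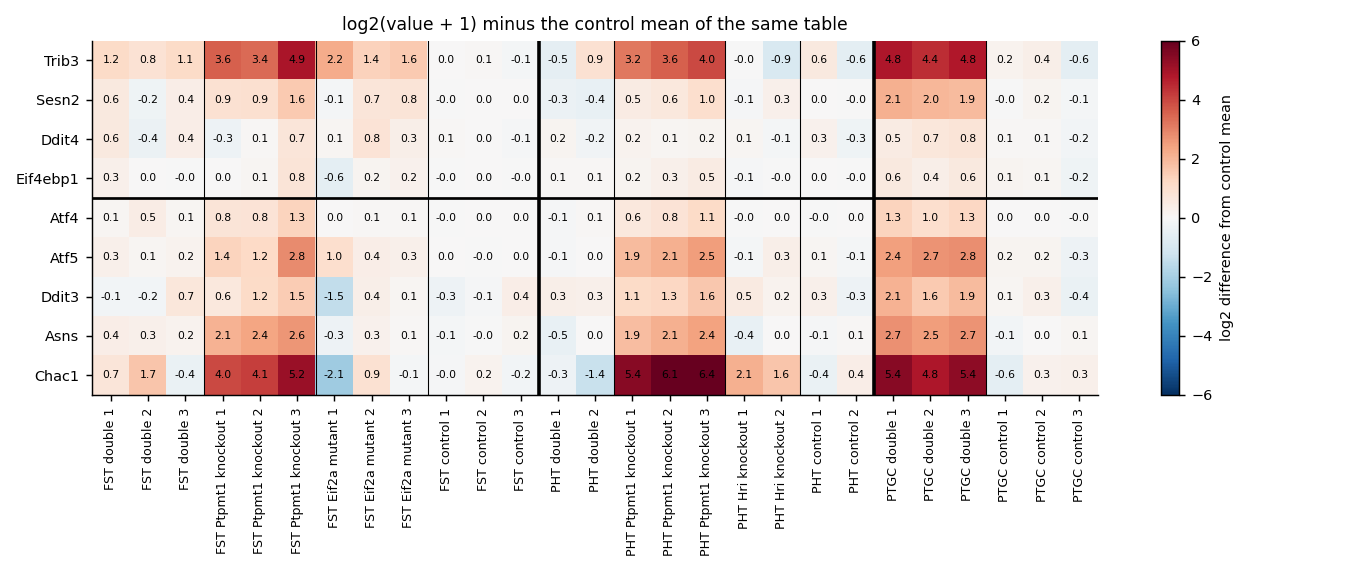
Log2 difference of each library from the control mean of its table (colour) for the 4 genes and 5 genes of the Atf4 axis, with libraries in columns by table and group. Trib3 shows 3.40 to 4.90 in FST knockouts, 3.18 to 3.97 in PHT knockouts and 4.44 to 4.84 in PTGC doubles, and the Ddit4 and Eif4ebp1 rows stay pale.

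The Atf4 axis was taken as 10 genes: Atf4, its partners and related factors Atf5, Ddit3, Atf3, Cebpb, Cebpg and Nupr1, the eIF2 phosphatase subunit Ppp1r15a, the asparagine synthetase Asns and the glutathione-degrading enzyme Chac1. In FST knockouts 4 of 9 tested rose (Asns 2.36 ± 0.15, Atf4 0.97 ± 0.13, Atf5 1.79 ± 0.31 and Chac1 4.42 ± 0.73), and in PHT knockouts 6 of 10 did. In the doubles against knockouts 5 of 9 fell in FST and 4 of 10 in PHT, with Atf4 at -0.74 ± 0.13 (adjusted p = 0.0125) and -0.87 ± 0.12 (adjusted p = 0.00212). In PTGC doubles 8 of 10 rose, with Atf4 at 1.203 ± 0.11 (adjusted p = 6.48e-05) and Asns at 2.64 ± 0.11 (adjusted p = 3.28e-07). Atf4 itself averaged 849 ± 122 in FST doubles, 1436 ± 324 in knockouts, 749 ± 22.2 in Eif2a mutants and 721 ± 11.6 in controls, so its order was not that of Trib3, for which Eif2a mutants lay above doubles. The calls of Asns held under every alternative run except 1, the PHT interaction without control replicate 1 (adjusted p = 0.0534), while Atf5 and Chac1 in FST knockouts each kept theirs in 9 of 14. The fall of Atf4 was lost in PHT with sex as a term (-0.64, adjusted p = 0.189) and kept in 12 of 15 alternatives in FST, and its rise in PHT knockouts was lost without either control (adjusted p = 0.0615 and 0.0658). The FST falls of Atf5 and Chac1 in doubles against knockouts each kept their call in 9 of 15 alternatives, and that of Atf3 in 5 of 15. The rise of Atf3 in PHT knockouts kept its call in 9 of 13, and that of Nupr1 in PTGC doubles in 6 of 10. Where neither knockouts nor PTGC doubles were involved, limma and edgeR called 0 of the axis in FST Eif2a mutants, in PHT libraries labelled Hri knockout and in the doubles against controls or against those mutants, with 0 to 2 genes at an unadjusted p under 0.05. DESeq2 called 1 gene there, in FST doubles against controls.

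The pathways that the 4 proteins act on were listed as 76 genes: 20 of the insulin receptor and Akt pathway, 21 of mTORC1 and its activators, 16 inhibitors of mTORC1 and 19 of cap-dependent translation. All 76 were tested in each table, and limma called 0 of them in any of the 13 comparisons. Over these 988 tests 78 had an unadjusted p under 0.05, edgeR called 0 and DESeq2 called 5 (3 without its filter). Of the 78, 19 fell in FST knockouts against controls, where 1860 of 13896 genes had such a p. PHT knockouts against controls held 3 (717 of 14965 over all genes), and PTGC doubles against controls held 10. Over all genes, 981 to 1915 of 13896 had an unadjusted p under 0.05 in the FST comparisons. In the PHT comparisons these were 485 to 1241 of 14965, and in PTGC 1627 of 14128. DESeq2 called 20 to 325 of all genes in FST, 4 to 105 in PHT and 179 in PTGC. In FST knockouts DESeq2 called Castor2, from the list of mTORC1 inhibitors (-0.46, adjusted p = 0.0419), and the scaffold Eif4g1 (-0.29, adjusted p = 0.0310). Without its independent filtering DESeq2 called 0 of the 76 in this comparison. In FST doubles against knockouts it called Eif4g2 (-0.31, adjusted p = 0.0207) and the PI3-kinase subunit Pik3ca (-0.29, adjusted p = 0.0417), and in PTGC doubles the eIF4E kinase Mknk1 (0.65, adjusted p = 0.0235). The list medians lay between -0.12 and 0.02 in FST knockouts, -0.04 and 0.03 in PHT knockouts, and -0.05 and 0.14 in PTGC doubles. Activity of these pathways is set largely by phosphorylation, which RNA counts do not measure.

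**Figure D4:**
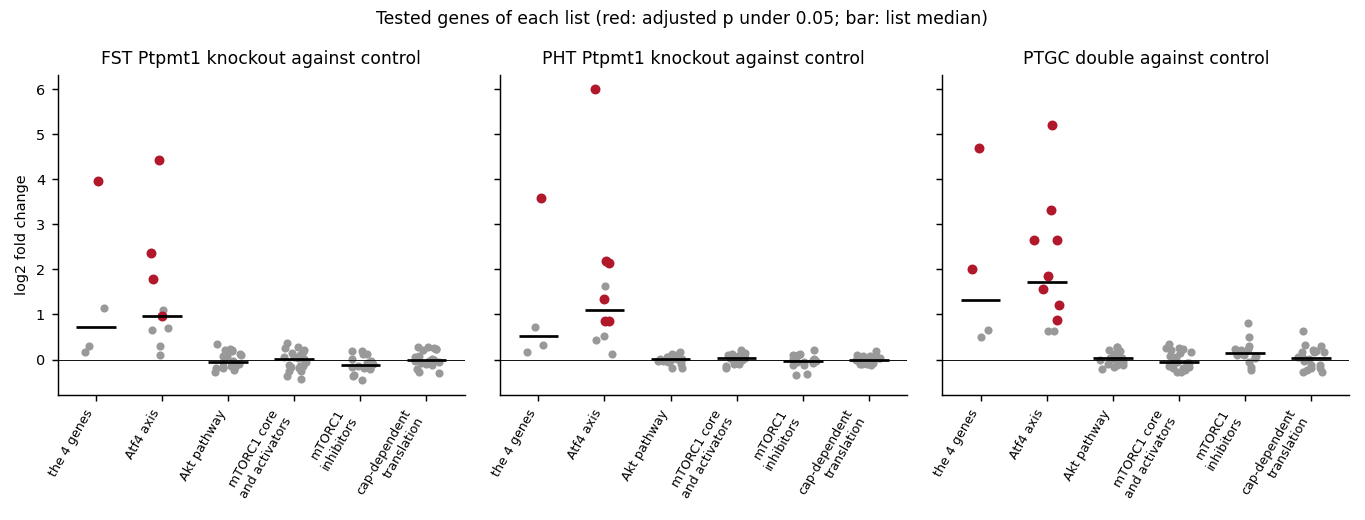
Log2 fold change of every tested gene of the 4 members, the Atf4 axis and the 4 growth pathway lists in FST knockouts, PHT knockouts and PTGC doubles, each against control, with list medians as bars and genes past an adjusted p of 0.05 in red. Members and Atf4 axis genes reach 4.69 and 5.999, while the 76 growth pathway genes stay within -0.46 and 0.81.

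Of 7 close relatives of the members (Trib1, Trib2, Sesn1, Sesn3, Ddit4l, Eif4ebp2 and Eif4ebp3), all tested, none was called in the knockouts against controls or in PTGC by limma, edgeR or DESeq2, where 0, 0 and 2 of 7 had an unadjusted p under 0.05 in FST, PHT and PTGC. Trib2, a pseudokinase relative of Trib3, was called lower in FST doubles, at 619, 544 and 648 against 881, 744 and 880.2 in knockouts and 898, 859 and 846 in controls. The doubles lay below every library of the other groups. The log2 fold changes were -0.53 ± 0.09 against controls (adjusted p = 0.0332) and -0.47 ± 0.09 against knockouts (adjusted p = 0.0259), and these calls were kept in 7 and 8 of 15 alternatives. Both were lost without any 1 of the 3 doubles, with adjusted p of 0.0673 to 0.157 against controls and 0.0590 to 0.1096 against knockouts.

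Other factors known to induce members were looked at through lists of their targets. The all-gene counts to set beside these lists are those given for the growth pathways above. Among 12 hypoxia targets limma called Vegfa alone, in PTGC doubles (0.56 ± 0.11, adjusted p = 0.0352), a call kept in 8 of 13 alternatives. Over all comparisons 27 of 156 tests on this list had an unadjusted p under 0.05, edgeR called 1 and DESeq2 4. Of these, 7 tests and 2 DESeq2 calls fell in FST Eif2a mutants against controls, where the list ran from 0.036 to 0.82 with a median of 0.38 (all genes -0.01). Among 10 glucocorticoid targets the metallothionein gene Mt2 was lower in FST knockouts (-2.36 ± 0.37, adjusted p = 0.00688) and higher in FST doubles against knockouts (2.95 ± 0.37, adjusted p = 0.00137). On that list 12 of 130 tests had an unadjusted p under 0.05, edgeR called 2 and DESeq2 1. Among 12 targets of p53, a known inducer of Sesn2, limma called 2: the cyclin Ccng1 was higher in FST doubles against controls (0.53 ± 0.08, adjusted p = 0.0114) and the cell cycle inhibitor Cdkn1a in PTGC doubles (1.03 ± 0.16, adjusted p = 0.00668). On the p53 list 37 of 156 tests had an unadjusted p under 0.05, edgeR called 3 and DESeq2 9, of which 3 were in FST knockouts, 2 in Eif2a mutants and 3 in FST doubles, each against controls, and 1 in PTGC doubles. FoxO targets are known to rise when Akt is inhibited. Among 12 of them limma called Gadd45a alone, higher in PTGC doubles (1.37 ± 0.20, adjusted p = 0.00537). The part of Akt or FoxO in this rise was not tested. On the FoxO list 14 of 156 tests had an unadjusted p under 0.05, with 1 call by edgeR and 2 by DESeq2. Limma called 0 genes of the Nrf2 list and 0 of the TFEB list in any comparison, with 7 and 5 tests at an unadjusted p under 0.05 and 0 calls by edgeR or DESeq2.

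The genes most like each member were ranked by the mean absolute difference in log2(value + 1), centred on the control mean of each table, over 27 libraries and 12656 genes. Nearest to Trib3 were the cationic amino acid transporter Slc7a3 (0.76), Cntnap3 (0.80), Cyb5r2 (0.92) and the cystine transporter Slc7a11 (0.94), where the median gene was at 1.86. Nearest to Sesn2 were Fam129a (0.25), Cyb5r1, the serine hydroxymethyltransferase Shmt2 and the mitochondrial PEP carboxykinase Pck2 (0.26 each), with the median gene at 0.63. Nearest to Ddit4 were Vegfa (0.16), Pdgfrb (0.18), Zbtb7b (0.18) and Boc (0.19), against a median of 0.34. Nearest to Eif4ebp1 were Boc (0.12), the amino acid transporter Slc38a7 (0.13), Trim35 (0.14) and Gsto1 (0.14), against a median of 0.28. The mean absolute departures of Ddit4 and Eif4ebp1 themselves from the control mean were 0.29 and 0.21.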

How the data were processed

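RNA-seq libraries of cardiomyocytes were given as 3 tables, 1 per mouse line. The deposited signal values are normalized counts per gene and library; per the submitters' processing notes STAR 2.5.3a, DESeq2 1.12.4 and mm10 are named, with no role. The sources used here name no read counter, annotation or strandedness. All 4 members share no exon with another gene in GENCODE M21. Each column held whole multiples of 1 step, and dividing by it gave whole reads (within 0.1) for 100% of values. These reads give the depths and fed the count tests. Tables were normalized separately, so tests stayed within a table, and 0 columns were without a sample.

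Genes reaching 10 in a number of libraries equal to the smallest group's size (13896, 14965 and 14128 genes in FST, PHT and PTGC) were tested two-sided with limma 3.58.1 (trend) in R 4.3.3, with a pseudocount of 1. Alternatives were a pseudocount of 4, no filter, limma on TMM-scaled log2 CPM, edgeR 4.0.16, DESeq2 1.42.0, only the groups compared, sex pattern (read from Xist and Y-linked genes) as a term, and libraries left out. The fits of FST knockouts, PHT knockouts and PTGC doubles, each against control, were also run on simulated data. Doubles against knockouts and the interactions were not simulated, and no result above rests on the simulation. The members and gene lists were chosen with earlier results of these data known. Named genes were the members, the targeted genes, called genes of the pathway and target lists (up to 4 per comparison by p) and the 4 genes most like each member; growth pathway genes called by DESeq2 were named after their values were seen. Promoter windows came from RefSeq (3 of 4 members matched) and gene positions from GENCODE M21.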

Additional observations from a re-analysis of the deposited data

Results flagged for a closer look

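For Trib3 the effect of the Ptpmt1 knockout differed between mice with and without the Eif2a mutation. The interaction in the FST table was -4.63 on the log2 scale (adjusted p = 0.000525 by limma over 13896 genes), and it ran from -4.92 to -4.16 over fits that left out 1 library each. By limma no other member passed this test in FST, and no member, Trib3 included, passed it in PHT. DESeq2 called 2 members in the FST interaction and 1 in that of PHT. Groups held 2 or 3 libraries, too few to look for single outlying libraries.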

How the results depend on the processing

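Of 738 alternative values for the members' log2 fold changes, 672 kept their direction and side of the threshold, 27 gained a call, 2 lost one (Trib3 and Sesn2 in PHT doubles against knockouts with sex as a term, which left 0 members called) and 37 changed sign. The count of members called became 2 in FST knockouts with a pseudocount of 4, edgeR, DESeq2 without independent filtering (an alternative chosen after seeing the data), only the groups compared, and without the 2 FST libraries with fewest genes, through Sesn2 each time; leaving out 1 library gave 1 to 2. With DESeq2, filtered or not, it became 1 in FST Eif2a mutants, 2 in FST doubles against knockouts, 2 in the FST interaction, 2 in PHT knockouts, 1 in the PHT interaction and 4 in PTGC. In the PHT interaction it was 1 with a pseudocount of 4 or sex as a term, and 0 to 1 without 1 library. In PTGC it was 2 to 4 without 1 library. DESeq2 with its filter gave no adjusted p for Trib3, Sesn2 and Ddit4 in FST knockouts against controls and doubles against Eif2a mutants. The cause of these moves was not tested.

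No sign change involved a called value. Leaving out 1 library gave Ddit4 -0.13 to 0.39 in FST knockouts, -0.18 to 0.34 in FST doubles against knockouts (-0.026 with sex as a term) and -0.39 to 0.068 in FST doubles against Eif2a mutants. In PHT it gave Ddit4 -0.10 to 0.41 in knockouts, -0.27 to 0.23 in doubles against controls, -0.38 to 0.023 in doubles against knockouts, -0.23 to 0.17 in doubles against libraries labelled Hri knockout (Hri below), -0.44 to 0.071 in the interaction and -0.25 to 0.26 in Hri against controls (-0.030 by edgeR, -0.023 by DESeq2, -0.052 with sex). For Eif4ebp1 the ranges were -0.20 to 0.21 in FST Eif2a mutants (0.053 with sex, 0.21 without the 2 libraries), -0.0068 to 0.15 in FST doubles against controls, -0.35 to 0.033 against knockouts, -0.11 to 0.29 against Eif2a mutants (-0.071 without the 2 libraries) and -0.42 to 0.085 in the FST interaction. In PHT Hri against controls it was 0.17 with sex. For Sesn2 they were -0.50 to 0.029 in FST doubles against Eif2a mutants and -0.051 to 0.31 in PHT Hri against controls. For Trib3 in PHT they were -1.03 to 0.10 in Hri against controls (0.13 with sex), -0.53 to 0.90 in doubles against controls and -0.068 to 1.37 in doubles against Hri.

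The doubles' shares of the knockout level with single libraries left out were computed after seeing the data. Over all genes and the 13 comparisons limma made 448 calls, against 475 by edgeR, 1237 by DESeq2 and 270 with sex as a term. Without Ptpmt1 knockout replicate 3 the FST knockouts gave 858 calls against 70, and without control replicate 2 PTGC gave 535 against 105. No paired analysis was possible because the labels give no replicate numbers shared between groups. Where an arm was left with 1 library, its spread was assumed to be that of the other groups.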
